A study of Mus musculus with 64 samples.

Results

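The 32 genes described here mark the oligodendrocyte lineage, from the precursor cell to the myelin sheath. They were chosen by name, with earlier results of these data known: each is a row of the count table whose gene identifier maps to one of the chosen symbols, and all 32 were found among the 55401 genes listed. All 32 also passed the filter on low counts, which left 18971 genes for testing. They fall into 7 roles: transcription factors (Sox10, Olig1, Olig2, Myrf, Nkx6-2), genes of precursors and committed cells (Pdgfra, Cspg4, Gpr17, Bcas1, Enpp6), myelin membrane proteins (Mbp, Mobp, Mog, Mag, Cldn11, Mal, Opalin, Tspan2, Tmem125), enzymes (Cnp, Ugt8a, Fa2h, Aspa), connexins (Gjb1, Gjc3), genes of the cytoskeleton and signalling (Ermn, Gsn, Ppp1r14a, Lpar1), and secreted or adhesion proteins (Trf, Cdh19, Hapln2).

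Oligodendrocytes wrap axons in myelin, the lipid-rich membrane that speeds conduction. They arise throughout adult life from dividing precursors, which carry the growth factor receptor Pdgfra and the proteoglycan Cspg4 (NG2). A precursor that leaves the cycle passes through a short committed stage marked by the receptor Gpr17 and by Bcas1 and Enpp6, then switches on Myrf, the regulator of the myelin genes, and makes the sheath proteins. White matter holds far more mature oligodendrocytes than grey matter, while precursors are spread through both.

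Chow-fed, group-housed male C57BL/6J mice (32 in all, 10 weeks old) received one intraperitoneal injection of 3 mg/kg psilocybin, a serotonergic psychedelic, or isotonic saline. Tissue was taken 3 h or 4 weeks later, so there were 4 groups of 8 mice, and the prefrontal cortex (PFC, called frontal cortex in the sample labels) and the whole hypothalamus of each mouse were sequenced as bulk poly-A RNA. The 4-week mice were correspondingly older at harvest than the 3 h mice, so that time since the injection, saline injection included, and age cannot be told apart. The mice lived in 8 cages of 4, 1 mouse of each group per cage, and the labels give an extraction pool for each sample: in the hypothalamus cages 1 to 4 formed pool A and cages 5 to 8 pool B, and in the PFC the same cages formed pools C and D.

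Of the 64 libraries, 62 had at least 1000000 counted reads and were used, with 8061033 to 70361839 counts each. The 2 others, of the saline 3 h hypothalamus and the psilocybin 4-week PFC, were left out, so those groups have 7 libraries. The study also left out a further sample, not named in its methods, because wound-healing and immune genes were strongly enriched in it. No library was left out for that reason here. The tissues matched their labels: the summed level of 8 hypothalamic genes was 365 to 2672 CPM (counts scaled to a common library size) in the hypothalamus and at most 21.1 CPM in the PFC. A library stood apart in each region. Hypothalamus psilocybin 4 weeks replicate 5 had the highest sum of hypothalamic genes and, within the hypothalamus, of microglial genes (638 CPM). Its weight was the lowest of all libraries (0.028) in an alternative fit that weights libraries by quality, and it was kept in the main fits. PFC saline 3 h replicate 6 had the highest summed level of the 32 genes in its region (6844 CPM). Values without these libraries are given beside the results that moved most when they were left out.

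The levels of the 32 genes spanned a wide range within each region. Per kilobase of gene length, Mbp (myelin basic protein, which holds the layers of the sheath together) was highest in both regions, at 418 CPM per kb in the hypothalamus and 218 CPM per kb in the PFC. Mobp (190 and 89.5 CPM per kb), Trf (the iron carrier transferrin, 147 and 60.4), Cnp (a myelin enzyme, 138 and 66.9) and Mal (a proteolipid of compact myelin, 118 and 66.4) came next. Enpp6, a choline phosphodiesterase, was lowest in both (2.0 and 1.2 CPM per kb), followed by Cspg4 in the hypothalamus (2.2) and Nkx6-2 in the PFC (1.7). Among the transcription factors Olig1 was highest per kilobase, at 63.9 CPM per kb in the hypothalamus, and among the precursor and committed-cell genes Bcas1, at 59.3 there and 33.0 in the PFC. Mobp, Gsn and Cdh19 each overlap a second tested gene on the same strand (Gm38642, Gm43128 and Gm38255), so their counts may be shared with it.

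The promoters of Opalin, Mal and Cldn11 are shown because these myelin membrane genes differed between the time points, Opalin in one direction and Mal and Cldn11 in the opposite one. Promoter sequences of RefSeq on GRCm38.p6 matched 23 of the 32 members by symbol. The 150 bases before each start are given 5′ to 3′ on the gene's strand, at chr19:41077114-41077263 (minus strand) for Opalin, chr2:127656696-127656845 (minus strand) for Mal and chr3:31149770-31149919 (plus strand) for Cldn11, and capitals mark a match to a motif.
Opalin: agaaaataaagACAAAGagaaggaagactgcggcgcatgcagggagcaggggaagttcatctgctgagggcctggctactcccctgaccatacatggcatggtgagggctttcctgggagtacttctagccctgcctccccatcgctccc
Mal: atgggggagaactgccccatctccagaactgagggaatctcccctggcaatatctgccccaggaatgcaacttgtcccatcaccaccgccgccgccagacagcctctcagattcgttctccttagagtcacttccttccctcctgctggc
Cldn11: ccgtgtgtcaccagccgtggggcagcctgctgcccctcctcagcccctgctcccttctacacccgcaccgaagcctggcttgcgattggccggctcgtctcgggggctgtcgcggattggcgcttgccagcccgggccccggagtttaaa
Both strands were searched for the SOX motifs ACAAAG and ACAATG and for the E-box CAGCTG, which do not overlap one another. Opalin held 1 ACAAAG, which begins 139 bases before the start, and these letters do not occur in the windows of Mal and Cldn11. Over the 32851 promoter windows of the same length, 9.88% held ACAAAG, 6.41% ACAATG and 8.39% CAGCTG, and of the 23 matched members 6, 4 and 3 did, in that order. A member was counted if any of its windows held the motif, whereas the shares are per window, so the units differ.

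Comparing the 2 regions, mature oligodendrocyte genes were about 2 times higher in the hypothalamus than in the PFC, whereas the precursor genes Pdgfra and Cspg4 differed by at most 0.14 on the log2 scale. Over the 4 conditions, 30 of the 32 members were higher in the hypothalamus and 1 was lower at an adjusted p under 0.05 (edgeR quasi-likelihood test). The background is high: 36.5% of all genes tested were higher and 39.6% lower. The members' median log2 difference was 1.03, against −0.02 over all genes. Because each region has its own extraction pools, region and extraction cannot be told apart, and in bulk tissue more cells of a type and more RNA per cell cannot be told apart either. The median was 1.18 in cages 1 to 4 (pool A against C) and 0.84 in cages 5 to 8 (pool B against D).

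Nkx6-2 (chr7:139579376-139582790, minus strand, GRCm38), a homeobox regulator of oligodendrocyte maturation, differed most of all members. It lay at 10.1 to 78.3 CPM (median 21.1) in the 31 hypothalamus libraries and at 1.4 to 6.4 CPM (median 3.1) in the 31 PFC libraries, so the regions did not overlap, a log2 difference of 2.76 (SE 0.13, adjusted p = 1.2e-26) or 6.77-fold. Fa2h, the hydroxylase that makes the hydroxylated fatty acids of myelin lipids, ranged from 36.1 to 67.1 CPM in the hypothalamus and from 14.6 to 33.8 CPM in the PFC (log2 difference 1.19, SE 0.06, adjusted p = 1.8e-26). Cnp, the myelin phosphodiesterase, ranged from 393 to 740 CPM against 150 to 346 CPM (1.07, SE 0.06, adjusted p = 1.7e-25). With Mag, an adhesion protein of the inner myelin layer, these were the 4 members whose 31 and 31 libraries did not overlap, where 4.69% of all genes did so in that direction. Myrf, the myelin gene regulator, was higher by 1.17 (SE 0.06, adjusted p = 3.4e-25).

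All 9 myelin membrane proteins were higher in the hypothalamus, by 0.86 to 1.14 on the log2 scale, as were the 5 transcription factors (median 1.07), the 4 enzymes (median 1.08) and both connexins (median 1.22). Mbp itself was 1.96-fold higher (log2 0.97, SE 0.07). Within a mouse the order rarely changed. Of the 30 mice with both libraries, Olig1, Myrf, Nkx6-2, Mog, Mag, Cnp, Fa2h and Hapln2, a link protein of the nodes of Ranvier, were higher in the hypothalamus in all 30, and Mbp in 29. Sox10, Olig2, Bcas1, Enpp6, Mobp, Cldn11, Mal, Tmem125 and Aspa were higher there in all 30 as well.

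Several genes of early cells had smaller differences. Pdgfra averaged 85.9 ± 10.6 CPM in the hypothalamus and 84.0 ± 14.2 CPM in the PFC (SD, n = 31 each), a log2 difference of 0.05 (SE 0.05, adjusted p = 0.41), and was higher in the hypothalamus in 15 of 30 mice. Cspg4 (0.14, SE 0.06) and Gpr17 (0.15, SE 0.04) passed the test with small differences, and their order held in 19 and 20 of 30 mice. Enpp6 (0.70) lay between these and the myelin membrane proteins, and Bcas1 (0.87) near the lower end of the range of the myelin membrane proteins. Gsn, an actin-severing protein also made by other cells, differed by 0.15, a call that was lost on leaving out any 1 of 28 libraries and in 4 of the 9 other settings, among them the mouse as a replicate block (adjusted p = 0.066). Cdh19, a cadherin that Schwann cells also express, was the 1 member lower in the hypothalamus (−0.22, SE 0.09, adjusted p = 0.029), a call that was lost under 3 of the 9 other settings and on leaving out any 1 of 3 libraries.

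Of 30 further mature oligodendrocyte genes 25 were higher in the hypothalamus and 3 lower (median 0.73), while of 12 further precursor genes 6 were higher and 3 lower (median 0.13). The 3 lower mature genes were Kif5a, Tppp and Nkain2, which neurons also express, and whether this bears on their direction was not tested. Markers of other cells and tissues moved with the regions too: all 12 microglial, all 10 endothelial and all 12 mural and meningeal genes were lower in the hypothalamus, and of 10 neuronal genes 8 were lower and 1 higher. By median summed level, the astrocyte (5519 against 8559 CPM), Schwann cell (69.4 against 175 CPM) and striatal lists (175 against 251 CPM) were lower too. Thalamic (664 against 92.3 CPM), choroid plexus (54.0 against 17.1 CPM) and pituitary lists (13.6 against 1.3 CPM) were higher. Their part in the differences of the 32 genes was not tested.

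**Figure D1:**
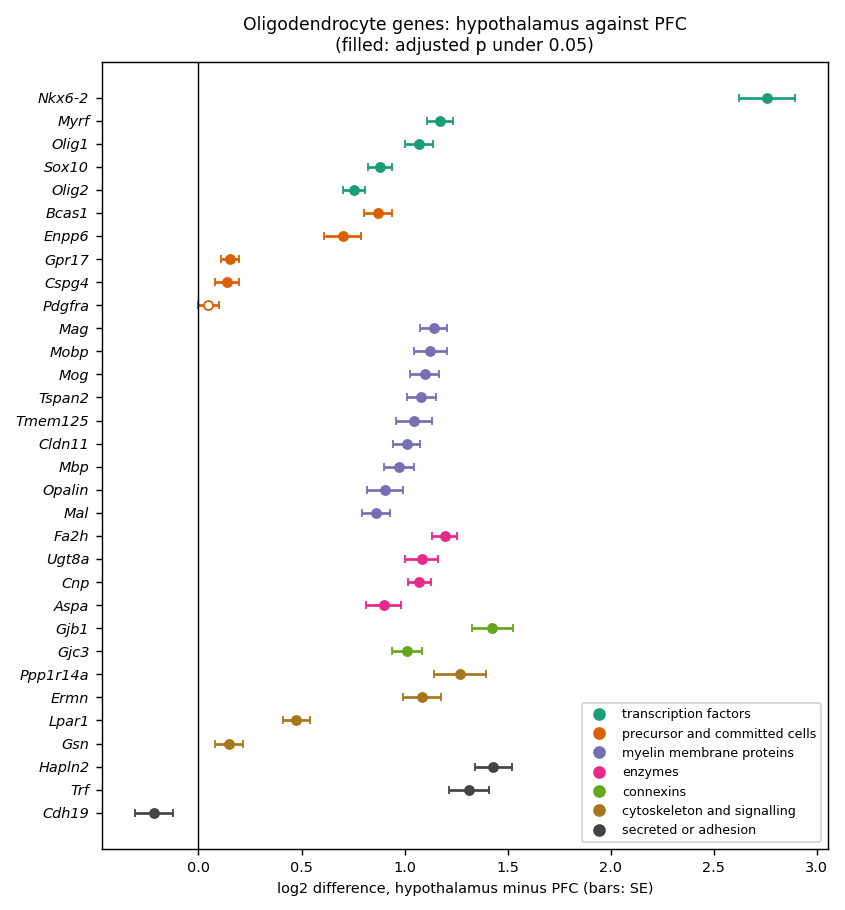
Log2 difference of each of the 32 genes, hypothalamus minus PFC (x axis), grouped and coloured by role, with the standard error as bars and filled points where the adjusted p was under 0.05. Most genes sit near 1, Nkx6-2 sits at 2.76, and Pdgfra, Cspg4, Gpr17, Gsn and Cdh19 sit near 0.

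To ask how the genes differed between the time points, 4 weeks was compared with 3 h over both treatments. Gpr17 was lower and Opalin, a sialylated transmembrane glycoprotein of mature oligodendrocytes, higher at 4 weeks in both regions. In the PFC 5 members passed the test, 4 lower and 1 higher, where 7.92% of all genes were lower and 9.22% higher. In the hypothalamus 5 passed as well, 4 lower and 1 higher, where 2.42% of all genes were lower and 1.57% higher. The members' median differences were −0.04 in the PFC and −0.09 in the hypothalamus, and 10 members in each region had an unadjusted p under 0.05, as did 30.4% of all genes in the PFC and 16.9% in the hypothalamus. In the PFC 6 of 12 astrocyte and 5 of 12 microglial genes were lower at 4 weeks as well, and their part was not tested.

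Gpr17, the receptor of the committed stage, had the smallest p of the members in both regions. In the PFC of saline mice it lay at 76.0 to 115 CPM (median 93.6, n = 8) at 3 h and at 44.2 to 66.4 CPM (median 54.5, n = 8) at 4 weeks. In the PFC of psilocybin mice it lay at 72.4 to 99.4 CPM (median 89.9, n = 8) and at 48.0 to 72.3 CPM (median 56.2, n = 7). Thus in the PFC each 3 h library was above each 4-week library, which was so for 0.111% of all genes.
Over both treatments the log2 difference in the PFC was −0.72 (SE 0.06, adjusted p = 4.4e-13), or 0.605-fold. In the hypothalamus of saline mice Gpr17 fell from 88.1 to 107 CPM (median 94.8, n = 7) at 3 h to 55.7 to 79.5 CPM (median 68.9, n = 8) at 4 weeks, without overlap, as 0.669% of all genes did. In psilocybin mice the hypothalamic range was 73.1 to 107 CPM (median 94.0) at 3 h and 41.4 to 77.5 CPM (median 67.4) at 4 weeks, and the ranges met only through replicate 5 of the 3 h group. The log2 difference in the hypothalamus was −0.50 (SE 0.06, adjusted p = 4.6e-08).

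With the saline mice alone Gpr17 was the 1 member called in each region, at −0.80 (SE 0.09, adjusted p = 4.4e-09) in the PFC and −0.49 (SE 0.09, adjusted p = 0.0010) in the hypothalamus, where 2.39% and 0.522% of all genes were called lower. Group means fitted for each extraction pool apart, an analysis chosen after the data had been seen, gave −0.87 (pool C), −0.59 (pool D), −0.54 (pool A) and −0.46 (pool B), each with an adjusted p of at most 9.3e-04. The shares of all genes called lower were 4.8%, 2.74%, 0.416% and 0.986% in that order. The difference in this change between the regions was 0.22 (SE 0.09, adjusted p = 0.21) and was not called, where 1.06% of all genes were. The Gpr17 gene, at chr18:31942997-31949636 on GRCm38, overlaps Lims2 on the opposite strand.

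The other precursor and committed-cell members, Pdgfra, Cspg4, Bcas1 and Enpp6, were not called in either region. Of the 3 lists of further lineage genes, 2 genes passed in both regions. Neu4, a sialidase of the precursor list, differed by −0.30 in each region (SE 0.07 and 0.06, adjusted p = 8.7e-04 in the PFC and 0.0024 in the hypothalamus). Tns3, a tensin of newly formed oligodendrocytes, differed by −0.36 in the PFC (SE 0.09, adjusted p = 0.0046) and −0.45 in the hypothalamus (SE 0.09, adjusted p = 0.0013). In the PFC 2 of 12 precursor genes (1 higher, Pcdh15), 3 of 10 newly formed genes (1 higher, Gpr37) and 7 of 30 mature genes (4 higher) passed, with Sirt2 counted in both of the last lists, and in the hypothalamus 1, 1 and 0.

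Opalin was higher at 4 weeks. In the hypothalamus it lay at 21.9 to 35.2 CPM in the 15 libraries of 3 h and at 28.2 to 94.5 CPM in the 16 of 4 weeks, with a log2 difference of 0.54 (SE 0.12, adjusted p = 0.0040). The value of 94.5 CPM was that of psilocybin replicate 5, without which the difference was 0.41 (adjusted p = 0.011). In the PFC it lay at 10.5 to 29.3 CPM in 16 libraries and at 13.2 to 35.2 CPM in 15, with a difference of 0.53 (SE 0.13, adjusted p = 0.0022). The PFC ranges overlapped widely. The difference was 0.21 (SE 0.17) in pool C and 0.81 (SE 0.16) in pool D, and that between the pools (0.60, SE 0.23, adjusted p = 0.34) did not pass the test. In the hypothalamus the values were 0.39 (SE 0.16) in pool A and 0.65 (SE 0.15) in pool B. Opalin was not called in pool B without psilocybin replicate 5.

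The calls for myelin genes that were lower at 4 weeks depended on the fit and the pool. In the hypothalamus Mal went from 316 to 442 CPM at 3 h to 227 to 367 CPM at 4 weeks over both treatments, a difference of −0.32 (SE 0.09, adjusted p = 0.035). Mobp, a basic protein of central myelin, went from 1141 to 2015 CPM to 852 to 1440 CPM (−0.38, SE 0.11, adjusted p = 0.042) and Cldn11, the claudin of myelin tight junctions, from 136 to 240 CPM to 116 to 190 CPM (−0.30, SE 0.09, adjusted p = 0.049). For all 3 the ranges overlapped. With the cage as a replicate block 2 members, Gpr17 and Opalin, were called in the hypothalamus, and the calls for Mal (−0.33, adjusted p = 0.060), Mobp (−0.38, adjusted p = 0.058) and Cldn11 (−0.29, adjusted p = 0.085) were lost, though their values hardly moved. On leaving out 1 library at a time these calls were lost without any 1 of 9, 19 and 24 of the 31 libraries of the region, in that order, while the differences stayed between −0.42 and −0.27.
In the PFC Cldn11 (−0.40, SE 0.09, adjusted p = 0.0018), Mal (−0.30, SE 0.10, adjusted p = 0.021) and Gsn (−0.26, SE 0.10, adjusted p = 0.049) were lower. The call for Gsn was lost in 28 of 41 other settings, single libraries left out included. Cldn11 differed by −0.73 (SE 0.12) in pool C and −0.10 (SE 0.12) in pool D, Mal by −0.71 (SE 0.12) and 0.06 (SE 0.11), and Gsn by −0.40 (SE 0.14) and −0.14 (SE 0.13). Without PFC saline 3 h replicate 6 the adjusted p of Mal was 0.058.

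**Figure D2:**
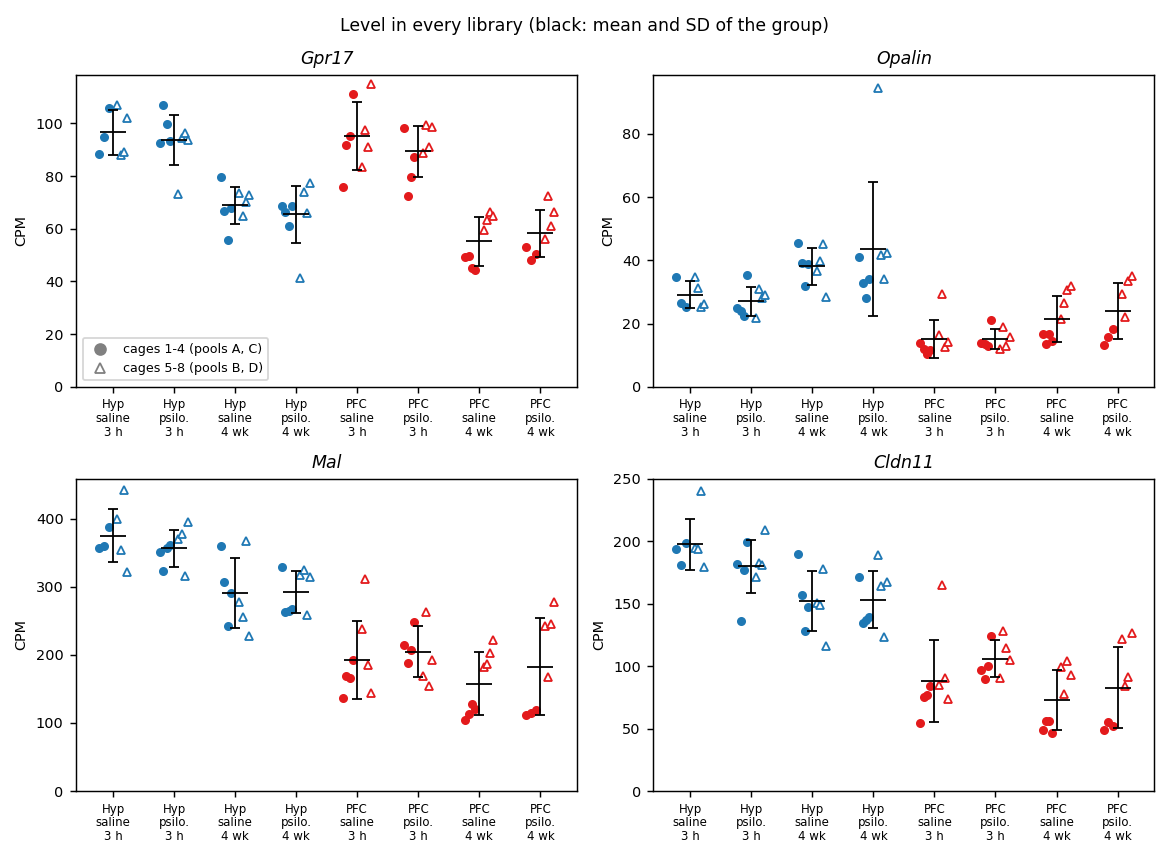
Level (CPM, y axis from 0) of Gpr17, Opalin, Mal and Cldn11 in every library of the 8 groups, circles for cages 1 to 4 and triangles for cages 5 to 8, with the mean and SD of each group in black. Gpr17 is lower at 4 weeks in both regions and both treatments, while Mal and Cldn11 at 4 weeks in the PFC split into low circles and high triangles.

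More members were called between the extraction pools of the PFC than between its time points or treatments. Pool D was above pool C in 27 members at an adjusted p under 0.05 and in none below, where 13.4% of all genes were called higher, and all 32 differences lay above 0 (median 0.46), as did 48.6% of all genes. Lpar1 (a lysophosphatidic acid receptor, 0.62, SE 0.09, adjusted p = 8.0e-06), Cldn11 (0.60, SE 0.10, adjusted p = 1.6e-05), Mbp (0.63, SE 0.10, adjusted p = 2.6e-05) and Bcas1 (0.59, SE 0.10, adjusted p = 2.7e-05) had the smallest p. In the hypothalamus pool B was above pool A in Mbp (0.32, SE 0.10, adjusted p = 0.026), Bcas1 (0.29, SE 0.09, adjusted p = 0.026) and Lpar1 (0.25, SE 0.09, adjusted p = 0.046), where 9.79% of all genes were called higher. Without psilocybin 4-week replicate 5 these 3 calls were lost, at 0.29 (adjusted p = 0.053), 0.27 (adjusted p = 0.051) and 0.25 (adjusted p = 0.063), and that of Lpar1 was lost without any 1 of 23 libraries.

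The pools of the PFC were then compared at each time point. The summed level of the 32 genes was 2448 to 2874 CPM in the 7 libraries of pool C at 4 weeks and 4283 to 6093 CPM in the 8 of pool D, without overlap. At 3 h it was 3077 to 5730 CPM in pool C and 3624 to 6844 CPM in pool D, which overlapped. Fitted at each time point apart, pool D was above pool C in 29 members at 4 weeks, where 11.7% of all genes were called higher, and in 0 at 3 h, where 0.0949% of all genes were called and 7 members had an unadjusted p under 0.05 (edgeR), as did 14.6% of all genes. Without hypothalamus psilocybin 4 weeks replicate 5, which enters the common estimate of the spread, 2 members were called at 3 h. Without PFC saline 3 h replicate 6, which lies in pool D, 0 members were called at 3 h, 4 had an unadjusted p under 0.05 and the median fell from 0.16 to 0.08. The shares of all genes were not computed for these fits without a library. At 4 weeks Mbp was at 971 to 1237 CPM in pool C and 1845 to 2749 CPM in pool D, and 23 members did not overlap between the pools, as 4.87% of all genes did in that direction.

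The comparison of time points in the PFC was therefore repeated within each pool. In pool C 11 members were lower at 4 weeks and 0 higher, where 4.8% of all genes were lower, with a median difference of −0.33 over the 32. In pool D 3 were higher (Opalin, Gjb1 and Aspa) and 1 lower (Gpr17), where 2.2% of all genes were higher and 2.74% lower, with a median of 0.24. The difference between the pools was itself called for 4 members, Mobp (0.95, SE 0.18), Mbp (0.83, SE 0.17), Mal (0.77, SE 0.16) and Cnp (0.67, SE 0.14), with adjusted p from 0.019 to 0.026, where 0.0685% of all genes were called. Without PFC saline 3 h replicate 6 it was called for 14 members, and without hypothalamus psilocybin 4 weeks replicate 5 for 7. In pool D 15 members were called without the first and 7 without the second. The shares of all genes were not computed for these fits without a library, so their counts cannot be set beside a background. In the hypothalamus the difference between the pools was called for 0 members and 0% of all genes (edgeR), and 1 member and 4.58% of all genes had an unadjusted p under 0.05.

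Markers of other cells moved with the PFC pools. In pool D all 12 astrocyte genes, all 12 microglial genes and 7 of 12 mural and meningeal genes were higher than in pool C, 4 of 10 neuronal genes and 4 of 8 cortical genes were lower, and 7 of 8 striatal genes were higher. Of all genes 13.4% were called higher, and in the fit at 4 weeks alone 9.89% were called lower. At 4 weeks the summed astrocyte level was 6104 to 7577 CPM in pool C and 7968 to 9899 CPM in pool D, the microglial level 514 to 607 and 729 to 820 CPM, and the neuronal level 8629 to 10778 and 7816 to 9105 CPM. The striatal level was 202 to 273 CPM in pool C and 214 to 1631 CPM in pool D. Their part in the pool differences of the 32 genes was not tested. A pool stands for the cages as well as for the extraction, which cannot be told apart.

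**Figure D3:**
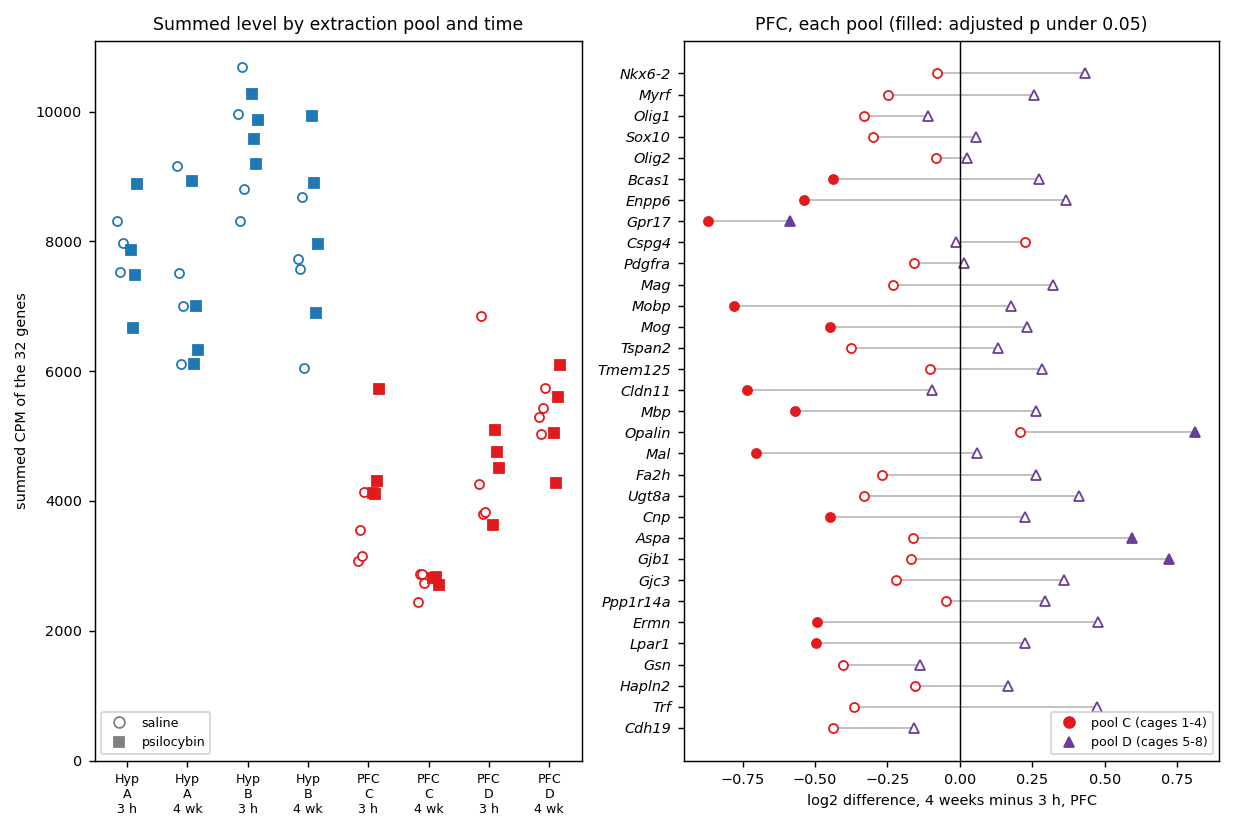
Left, summed CPM of the 32 genes (y axis from 0) in every library by extraction pool and time point, open circles for saline and filled squares for psilocybin. Right, log2 difference of 4 weeks minus 3 h in the PFC for each gene, in pool C (circles) and pool D (triangles), filled where the adjusted p was under 0.05. At 4 weeks the pool C libraries lie at 2448 to 2874 CPM, below the pool D libraries.

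Psilocybin was compared with saline to ask whether a single dose changes gene expression in these tissues within hours or for weeks. None of the 32 genes passed the test in the PFC at 3 h, the PFC at 4 weeks, the hypothalamus at 3 h or the hypothalamus at 4 weeks (edgeR), and of all genes tested 0.0105%, 0%, 0% and 0% were called. At an unadjusted p under 0.05 the members numbered 4, 0, 1 and 0 in that order, beside 7.23%, 2.4%, 1.78% and 9.61% of all genes. The differences of the members, psilocybin minus saline on the log2 scale, ran from −0.09 to 0.57, from −0.16 to 0.21, from −0.44 to 0.12 and from −0.15 to 0.46.

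In the PFC at 3 h 28 of the 32 differences lay above 0, with a median of 0.13, where 48% of all genes lay above 0. All 9 myelin membrane proteins were among them. Single libraries moved this median by over 1.5 times: it was 0.06 without psilocybin replicate 4, 0.20 without psilocybin replicate 5, 0.08 without saline replicate 5 and 0.22 without saline replicate 6. Without saline replicate 6, 12 members had an unadjusted p under 0.05, beside 9.64% of all genes, and without psilocybin replicate 4 2 did, with 21 above 0. No member was called without any 1 of these libraries (edgeR). The smallest p was that of Cdh19, the cadherin, at 10.4 to 28.3 CPM (median 21.1, n = 8) after psilocybin and 8.6 to 19.5 CPM (median 14.1, n = 8) after saline, a difference of 0.57 (SE 0.18, adjusted p = 0.46). The groups overlapped, as 5 of the 8 psilocybin libraries lay above the highest saline library. Voom with quality weights and the mouse as a block, in limma, called Cdh19 alone of the members, at 0.78 (adjusted p = 0.0078), where 5.14% of all genes were called higher, and 20 members lay above 0.
Hapln2, the link protein, lay at 7.6 to 19.4 CPM after psilocybin and 4.3 to 10.4 CPM after saline (0.50, SE 0.18, adjusted p = 0.55), the highest value being that of replicate 7, without which the difference was 0.36. Cldn11 differed by 0.31 (SE 0.13, adjusted p = 0.64). In pool C the members' median was 0.36 with 28 above 0 (49.1% of all genes), and in pool D it was −0.07 with 11 above 0 (47.6%). No member was called in pool C or D (edgeR), where 0.00527% and 0% of all genes were, and 13 and 1 had an unadjusted p under 0.05, beside 6.44% and 5.28% of all genes. The difference between the pools was called for 0 members and 0% of all genes, and 9 members and 4.97% of all genes had an unadjusted p under 0.05. Without saline replicate 6 the median in pool D was 0.17, with 28 above 0, and 0 members were called, and for the difference between the pools 1 member had an unadjusted p under 0.05 and the median went from −0.41 to −0.20. The shares of all genes in the fits by pool were not computed without that library.

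At 4 weeks in the PFC the members with the smallest p were Myrf (0.18, SE 0.13), Ugt8a, the enzyme of galactosylceramide synthesis (0.21, SE 0.17), and Mal (0.16, SE 0.14), each with an adjusted p of 1. In the hypothalamus at 3 h they were the transcription factors Olig2 (−0.28, SE 0.10), Nkx6-2 (−0.44, SE 0.25) and Olig1 (−0.23, SE 0.14), each again with an adjusted p of 1. Olig2 lay at 22.3 to 30.7 CPM (median 27.2, n = 8) after psilocybin and at 29.3 to 40.4 CPM (median 33.0, n = 7) after saline, which overlapped.
In the hypothalamus at 4 weeks they were Ppp1r14a, an inhibitor of myosin phosphatase (0.46, SE 0.24, adjusted p = 0.54), Trf (0.35, SE 0.19, adjusted p = 0.56) and Olig2 (0.17, SE 0.10, adjusted p = 0.61). Ppp1r14a rested on replicate 5, at 44.3 CPM against at most 12.5 CPM in the 7 others, and its difference without that library was 0.02. Trf rested on replicate 3, at 1175 CPM against at most 676 CPM in the others, and its difference without that library was 0.08. No member was called for the change of the response between the time points in the PFC or the hypothalamus, nor for its difference between the regions at 3 h (edgeR), and in each of these tests 0% of all genes were called. At an unadjusted p under 0.05 the members numbered 0, 2 and 2, beside 3.08%, 5.27% and 2.78% of all genes.

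**Figure D4:**
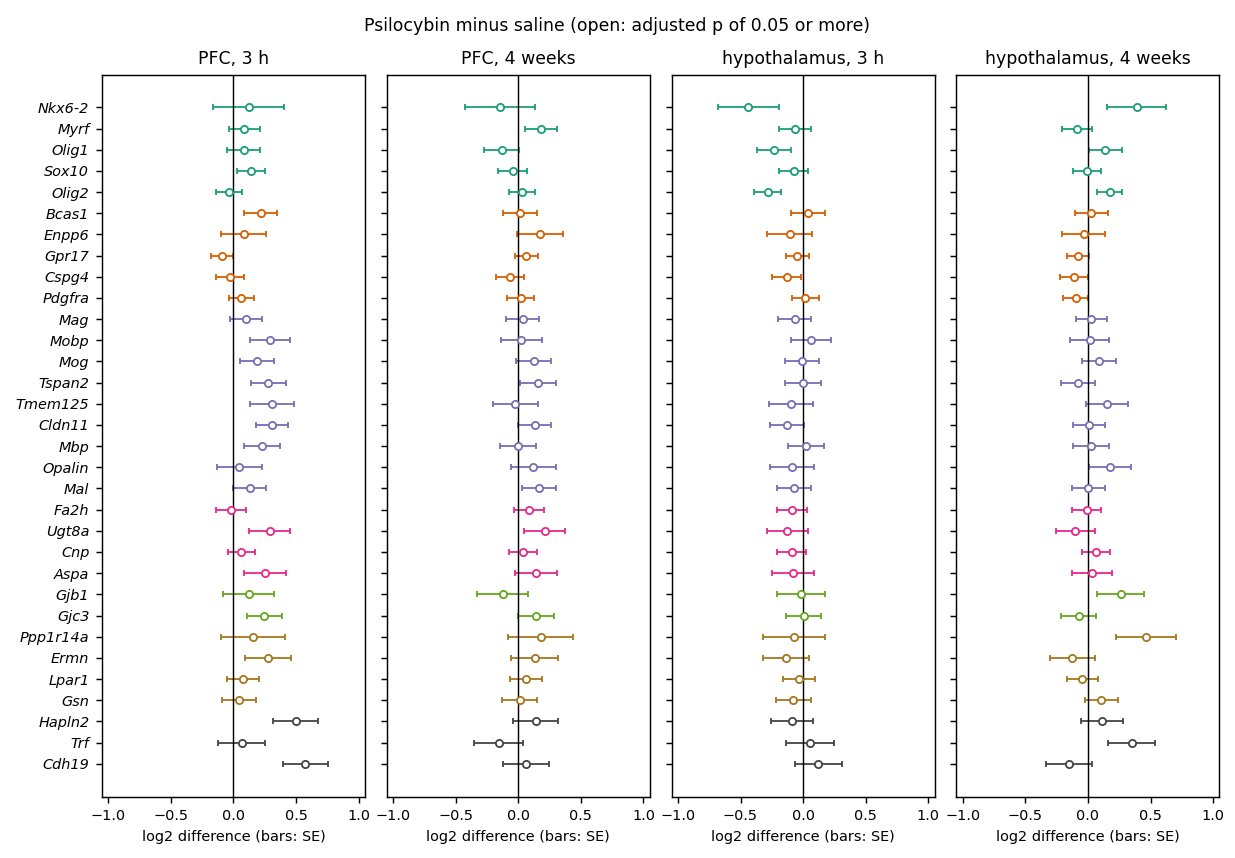
Log2 difference of each of the 32 genes, psilocybin minus saline, with the standard error as bars, in the 4 combinations of region and time point, on one scale. All points are open, since no adjusted p was under 0.05. In the PFC at 3 h 28 of the 32 lie above 0.

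Beyond the groups, the mature genes varied together from library to library. Residual log2 CPM of each other member, after removal of the group and pool means, was correlated with that of Mbp in the 31 libraries of each region. In the hypothalamus 24 of 31 and in the PFC 27 of 31 members had an adjusted p under 0.05 (permutation test, 100000 resamples, two-sided, adjusted over the 62 pairs). Correlated in the same way, 11% of all other genes in the hypothalamus and 4.61% in the PFC had an r above 0 with a permutation p no larger than the largest of these members (0.031). Without the library that stood apart in each region, an alternative chosen after the data had been seen, 25 and 28 of 31 members passed. Mobp had the highest correlation in both, with Pearson's r of 0.94 in the hypothalamus (Spearman's rho 0.94, permutation p = 1e-05, the smallest that the resamples can give, adjusted p = 2.3e-05) and 0.96 in the PFC (rho 0.93, permutation p = 1e-05, adjusted p = 2.3e-05). Bcas1, counted here with the committed cells, had a high correlation as well, at 0.93 and 0.92. Without the 2 libraries farthest from the median of Mbp, r was 0.91 and 0.95 for Mobp and 0.90 and 0.89 for Bcas1.

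Pdgfra (−0.29 and 0.24), Cspg4 (−0.11 and −0.06), Gpr17 (−0.14 and 0.36) and Cdh19 (−0.10 and 0.20) did not pass in either region. Their hypothalamic r was −0.01, 0.01, 0.10 and 0.28 without psilocybin 4 weeks replicate 5, and none passed. It was 0.12, 0.28, 0.36 and 0.09 in pool A and −0.51, −0.53, −0.36 and −0.24 in pool B. Gpr17 passed in the PFC without saline 3 h replicate 6 (r 0.43, adjusted p = 0.022, permutation). In the hypothalamus Myrf (0.35), Tspan2 (0.21) and Gjc3 (0.21) did not pass by Pearson's r. By rank these 3 passed, with rho of 0.43, 0.39 and 0.47 (adjusted p = 0.022, 0.036 and 0.0099, permutation), and without psilocybin 4 weeks replicate 5 their r was 0.59, 0.61 and 0.74, with adjusted p of 0.0011, 5.5e-04 and 4.6e-05. Within the pools their r was 0.75, 0.70 and 0.86 in pool A and −0.0079, −0.10 and −0.24 in pool B, which holds that library. Ermn (0.45), Ugt8a (0.39) and Olig2 (0.40) passed in the hypothalamus, and their r fell to 0.28, 0.24 and 0.33 without the 2 libraries farthest from the median. By rank Ermn (rho 0.51) and Ugt8a (0.44) passed and Olig2 (0.25) did not, and without psilocybin 4 weeks replicate 5 the r of the 3 was 0.76, 0.68 and 0.30, the last with an adjusted p of 0.12. Nkx6-2 (r 0.41, rho 0.37) passed in the hypothalamus as well, and did not without that library (r 0.29, adjusted p = 0.14, permutation). The correlations were also taken within each extraction pool, with group means removed. The r of Mobp was 0.95 (pool A, n = 15), 0.92 (B, n = 16), 0.91 (C, n = 15) and 0.93 (D, n = 16), and the median over the 31 members was 0.76, 0.62, 0.48 and 0.63. The members share each library's dissection, depth and scaling.

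**Figure D5:**
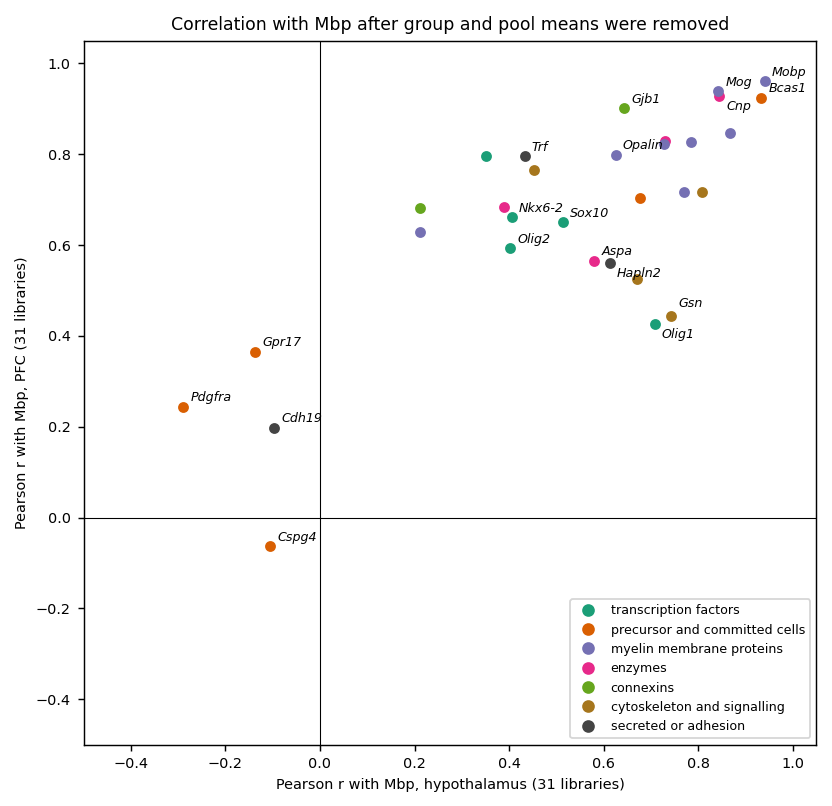
Pearson's r of each other member with Mbp in the hypothalamus (x axis) and the PFC (y axis), over 31 libraries each, coloured by role. Mobp, Bcas1, Mog and Cnp sit at the upper right, while Pdgfra, Cspg4, Gpr17 and Cdh19 sit below 0 in the hypothalamus. Leaving out hypothalamus psilocybin 4 weeks replicate 5 put these genes at −0.01, 0.01, 0.10 and 0.28 there, in that order (not drawn).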

How the data were processed

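RNA-seq of 64 samples was analysed, 8 in each of 8 groups. The table deposited by the authors holds whole-number counts per gene, not normalized. Per the labels and the study's methods, bcl2fastq 2.20.0, STAR 2.7.2b (GRCm38) and featureCounts 1.6.2 with a GENCODE gene model were used after a stranded poly-A kit, and only pairs with both ends on 1 strand were counted. Symbols were found for 55141 of 55401 identifiers.

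Libraries of at least 1000000 counts were kept (62). After filterByExpr (by group, count of 10) and TMM scaling, a robust quasi-likelihood model of group and extraction pool, the latter centred within region, was fitted in edgeR 4.0.16 (R 4.3.3). P-values were adjusted by Benjamini-Hochberg over 18971 genes and called under 0.05. CPM are TMM-scaled, and correlations used log2 CPM with a prior count of 2. Precision is lowest for members of few CPM. Alternatives included DESeq2 1.42.0, voom in limma 3.58.1, other scalings, filters and covariates, and leaving out each library. The fit was tested on simulated data.

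The members and lists were chosen with earlier results of these data known, and the fits within pools after the data had been seen. Values are given for all called members where up to 8 were called, otherwise for the 4 of smallest p per direction, and for 3 where none was called. Of other lists up to 3 were named, and Tppp, Nkain2, Pcdh15, Gpr37 and Sirt2 were named after their values were seen.

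Both regions came from the same mice, which pairs them by number within treatment and time point. Across treatments and time points a number marks only the cage of 4 mice: the correlation of same-numbered samples' deviations averaged 0.0017 to 0.18 over pairs of groups, and not every pair was over 0.1. No 2 libraries of a group agreed within counting noise (chi-square per degree of freedom at least 3.85 over 210 pairs).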

Additional observations from a re-analysis of the deposited data

Results flagged for a closer look

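In groups of 7 or 8 libraries, a highest or lowest value that stood apart from the others of its group by Dixon's test was looked for in 118 pairs of a named member and a group, and 19 were found, where chance gives about 1 in 20. Of these, 16 belonged to 3 libraries in which several genes stood apart.

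Hypothalamus psilocybin 4 weeks replicate 5 was highest for Cnp (739.845 CPM, next 553), Nkx6-2 (78.3418, next 39.4), Opalin (94.511, next 42.4) and Ppp1r14a (44.2721, next 12.5), and lowest for Cdh19 (3.46221, next 10.1), Gpr17 (41.4361, next 61.2) and Myrf (43.7933, next 65.2). The same library had the highest summed level of hypothalamic genes, 2672 CPM. PFC saline 3 h replicate 6 was highest for Bcas1 (207.393 CPM), Cldn11 (165.214), Cnp (346.453), Lpar1 (57.5273), Mbp (3112.86) and Opalin (29.3469), with a summed striatal level of 613 CPM. Hypothalamus saline 3 h replicate 7 was highest for Cldn11 (240.301 CPM), Fa2h (67.1245) and Myrf (105.553). Single values were the highest Trf in hypothalamus psilocybin 4 weeks replicate 3 (1174.61 CPM), the highest Hapln2 in PFC psilocybin 3 h replicate 7 (19.3638) and the lowest Gpr17 in hypothalamus psilocybin 3 h replicate 5 (73.1484).

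The change from 3 h to 4 weeks in the PFC differed between extraction pools D and C, by a test of the difference itself, for Cnp (0.673496 on the log2 scale), Mal (0.765769), Mbp (0.830061) and Mobp (0.954543). Astrocyte and microglial genes differed between these pools as well, and their part in these differences was not tested.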

How the results depend on the processing

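Gpr17 and Opalin kept their direction and their call between the time points in both regions under all settings run on the full time comparison. For the hypothalamus time comparison 5 members were called, against 3 with DESeq2-type size factors in edgeR, 2 with all 64 libraries, 2 without the extraction pool, 3 without a filter, 8 with only the groups compared, 9 with voom, 1 in pool A, 3 in pool B and 2 to 5 on leaving out a library. For the PFC time comparison 5 were called, against 2 without the pool, 3 without a filter, 3 with only the groups compared and 11 in pool C. In saline mice alone 1 was called, against 2 (only those groups) or 5 (voom) in the hypothalamus, and in the PFC 1 to 2 on leaving out a library (2 without hypothalamus psilocybin 4 weeks replicate 5 or PFC saline 3 h replicate 6). The pool difference in the hypothalamus was called for 3 members, against 7 with voom, 1 at 3 h, 0 at 4 weeks and 0 to 5 on leaving out a library (0 without psilocybin 4 weeks replicate 5, 5 without replicate 1 of psilocybin 4 weeks or of saline 4 weeks), and in the PFC for 27, against 0 at 3 h. At 3 h the pool difference in the hypothalamus was called for 3 members without hypothalamus psilocybin 4 weeks replicate 5, and for 3 without PFC saline 3 h replicate 6. Voom called 1 member for psilocybin in the PFC at 3 h (Cdh19) and 1 for the difference in time change between the regions (Gpr17). Voom also turned the sign of 2 differences that were not called, Hapln2 for the change of the psilocybin response in the PFC (0.00443718) and Ppp1r14a for psilocybin in the hypothalamus at 4 weeks (−0.0305213). The causes were not tested, except that pools, time points and leaving out libraries use fewer samples.

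With the cage as a replicate block 2 members were called in the hypothalamus time comparison, 4 in that of the PFC and 30 between the regions, and with the mouse as a replicate block 30 between the regions. The block changed no other count of calls by over 1.5 times.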
